A study of Mus musculus with 6 samples.

Results

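The first postnatal week of mouse hindlimb muscle was examined by setting muscle taken at postnatal day 7 (P7) against muscle taken at postnatal day 2 (P2). A gene was a member of the comparison if it reached 1 FPKM (fragments per kilobase of transcript, normalised to library size, a level corrected for transcript length) in at least 2 of the 4 libraries of these stages. This rule kept 13060 of the 39010 genes in the deposited table, 11742 of them protein-coding. The animals were wild type and of mixed strain background, and the labels name no treatment. RNA came from hindlimb muscle, and each stage had 2 libraries. The study also holds 2 libraries of postnatal day 14 (P14), which entered the statistical fit so that all 6 libraries shared an estimate of the spread. Total RNA (200 ng a library) was depleted of ribosomal RNA and made into strand-specific libraries. The labels do not say which muscles were pooled or whether a library was 1 animal, so the p-values below measure the spread between these libraries, which may be technical.

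In the mouse, limb muscle fibres are formed before birth and enlarge quickly after it, while myoblasts still divide and fuse into them. Fibres of newborn muscle carry embryonic and neonatal forms of the contractile proteins, which are later replaced by adult fast and slow forms. Over the same weeks the calcium-release system, mitochondria and nerve endings of the fibre mature, and fetal growth programmes wane in muscle and in the connective tissue around it.

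The libraries carried the RNA of skeletal muscle. Ckm, the muscle creatine kinase, had 688 and 681 FPKM in the P7 libraries, against 466 and 723 FPKM in the P2 libraries, and Tnnt3, fast skeletal troponin T, had 1510 and 1664 FPKM at P7, against 1108 and 1449 FPKM at P2. Between 12175 and 13337 genes reached 1 FPKM per library. P7 and P2 each had 1 library with Xist, the transcript of the inactive X chromosome (61.2 FPKM at P7 and 74.7 FPKM at P2), and 1 with the Y-linked gene Ddx3y. Both P14 libraries had Ddx3y (28.4 and 24.5 FPKM) and little Xist (0.567 and 0.0346 FPKM). The P7 libraries differed from each other by a median of 0.01 on the log2(FPKM + 1) scale, against 0.25 for the P2 libraries, of which replicate 2 was the higher. Across the 13566 genes tested the median gene was lower at P7 than at P2 by 0.27 on this scale. FPKM cannot show whether that shift is one of RNA content or of scaling, so each log2 difference below is P7 minus P2 relative to this median and is called the relative log2 difference. The P2 libraries also differed in composition: the 24 genes of the adult fast fibre list stood a median of 0.66 higher in replicate 2 than in replicate 1, and the 12 cartilage markers a median of 1.01 log2 lower, so a list's median is also given with a P2 library left out where that moved it by at least 0.1 log2 and by over 1.5 times or past 0.

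Few genes passed the test. With limma on log2(FPKM + 1), Benjamini-Hochberg adjustment over the 13566 tested genes and an adjusted p below 0.05, 10 members were called higher at P7 (0.0766%) and 13 were called lower (0.0995%), together 23 of 13060 (0.176%). All 23 differed by at least 1 log2, and 159 members reached that size upward and 151 downward without regard to the test. Of the 23, 10 were short RNAs listed at 0 in every library of one stage, so they were members only through the other stage. At an unadjusted p under 0.05, 922 members were higher and 924 lower. Other scalings gave other counts: 15 higher and 160 lower in the values as deposited tested against 0, 43 and 27 when libraries were scaled by the median of ratios, and 136 and 101 under quantile normalization. On the deposited scale, lists whose relative median lies between 0 and 0.25 have a median below 0. The median standard error of a difference was 0.19 log2, and the largest unadjusted limma p among the called members was 8.1e-05. Many members had P7 and P2 libraries that did not overlap without being called. In 2911 members (22.3%) both P7 libraries lay above both P2 libraries once the median shift was taken out, and in 2998 (23%) both lay below. These shares are the background for every gene list below, where such members are called separated.

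**Figure D1:**
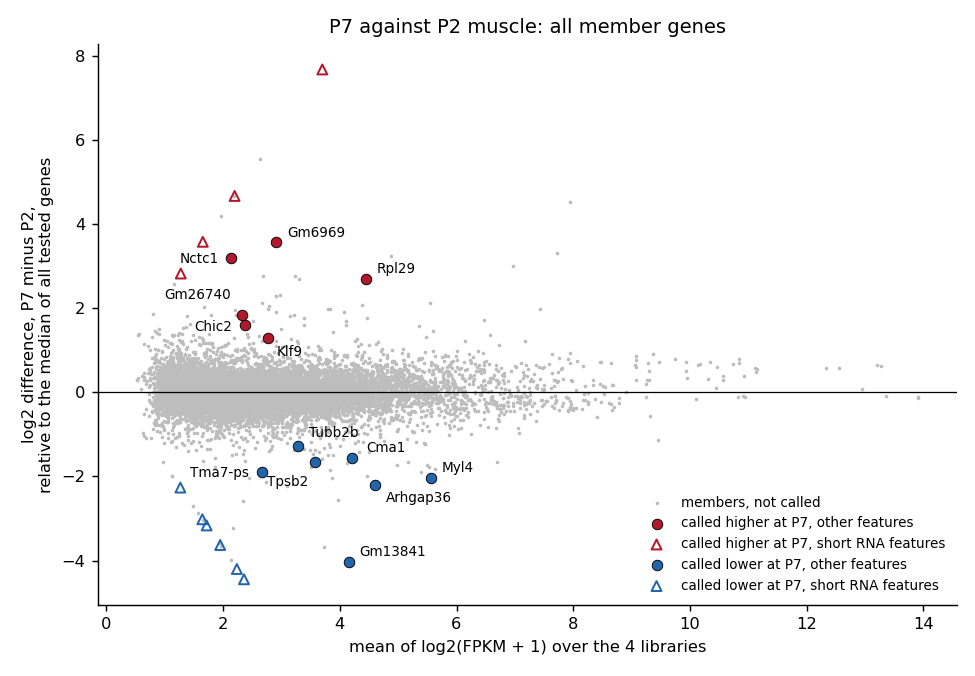
Each point is 1 of the 13060 members, with its mean log2(FPKM + 1) over the 4 libraries on the horizontal axis and its relative log2 difference, P7 minus P2, on the vertical axis. Red marks the 10 members called higher and blue the 13 called lower, with open triangles for the 10 short RNA features; many uncalled members lie as far from 0 as the called ones.

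Among the genes of the contractile fibre, the embryonic light chain fell. Myl4 (chr11:104550663-104595753, GRCm38) encodes the essential myosin light chain of embryonic muscle and of the atrium. It had 20.7 and 19.9 FPKM in the P7 libraries, against 112 and 96.1 FPKM in the P2 libraries. The P7 libraries were far below both P2 libraries, a relative log2 difference of -2.03 ± 0.17 (SE, n = 2 each, limma adjusted p = 0.00843), or a 4.08-fold lower level at P7. At P14 it stood at 8.58 and 7.92 FPKM. No library overlapped between the stages. The call was lost when either P7 library was left out, and its adjusted p reached 0.203 over the alternatives.

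Tubb2b and Arhgap36 fell as well. Tubb2b (chr13:34127008-34130354) encodes a beta-tubulin isotype best known from the developing nervous system. It had 4.54 and 4.87 FPKM at P7, against 15.6 and 15.9 FPKM at P2 (relative log2 difference -1.28 ± 0.14, limma adjusted p = 0.0326). Its closest copy Tubb2a shares 96.4% of 1350 aligned transcript bases and had 8.07 and 7.38 FPKM at P7, against 13.9 and 22.3 FPKM at P2. The sum of both genes was 12.6 and 12.2 FPKM at P7 and 29.5 and 38.1 FPKM at P2, so it too was lower in both P7 libraries. Other splits of reads between the 2 genes were not tested. Arhgap36 (chrX:49463945-49500244), whose protein inhibits protein kinase A and promotes hedgehog signalling, had 9.28 and 9.22 FPKM at P7, against 65.1 and 48.7 FPKM at P2. Its relative log2 difference of -2.21 ± 0.22 (limma adjusted p = 0.0211) was the lowest among the called protein-coding genes, and at P14 it stood at 0.896 and 1.64 FPKM. Both calls were lost in some fits that left out 1 library. Tubb2b was called in 1 of 6 such fits, the one without P2 replicate 2 (adjusted p up to 0.357 over the alternatives), and Arhgap36 in 3 of 6 (up to 0.219), not without P2 replicate 1 or either P7 library.

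**Figure D2:**
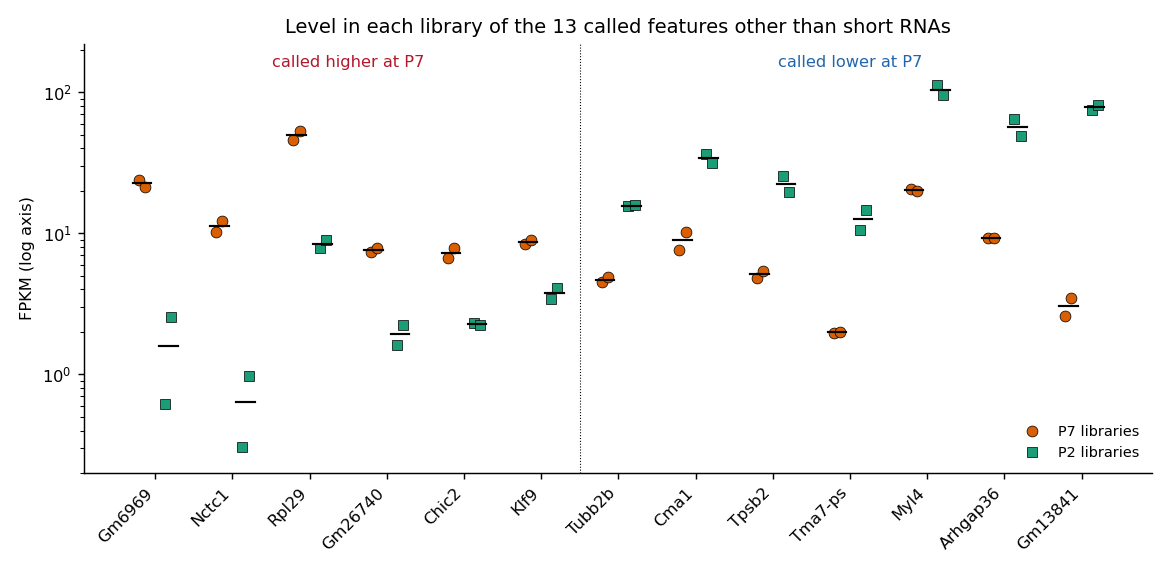
FPKM on a log axis in each P7 library (circles, left of each pair) and each P2 library (squares) for the 13 called features that are not short RNAs, with the stage mean as a bar. In all 13 the P7 and P2 libraries lie apart, with Rpl29 and Gm13841 in opposite directions.

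Transcripts of mast cell proteases were lower at P7. Mast cells are granulated immune cells of connective tissue, and their granules hold chymases, tryptases and carboxypeptidase A3. Tpsb2 (a tryptase, chr17:25366550-25368094) had 4.81 and 5.43 FPKM at P7, against 25.6 and 19.5 FPKM at P2 (relative log2 difference -1.66 ± 0.18, limma adjusted p = 0.0273). Cma1 (the mast cell chymase, chr14:55941453-55944661) had 7.60 and 10.2 FPKM at P7, against 36.5 and 31.6 FPKM at P2 (-1.56 ± 0.19, limma adjusted p = 0.0479). Both genes were called lower. Cpa3, the carboxypeptidase, had 6.26 and 9.71 FPKM at P7, against 43.7 and 25.2 FPKM at P2, and Mcpt4, another chymase, 5.49 and 7.84 FPKM at P7, against 28.4 and 21.3 FPKM at P2. Neither was called (limma adjusted p = 0.12 and 0.0886), although the libraries of the stages did not overlap in either gene. Of the 12 listed mast cell markers 7 were members, and the other 5 missed the 1 FPKM rule. Over the 7 members the summed level was 26.9 and 36.4 FPKM at P7 and 143 and 103 FPKM at P2. Of these members 2 were called lower and 6 were separated downward. In bulk muscle, fewer mast cells and less of these RNAs per cell cannot be told apart. Cma1 was called in 0 of the 6 fits that left out 1 library and Tpsb2 in 1 of them, the one without P2 replicate 2 (adjusted p up to 0.262 for each).

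The promoters of the 3 mast cell protease genes with the lowest relative log2 difference and an entry in the sequence table are shown because these genes moved together. They run from 250 bases before to 50 bases after the RefSeq start on GRCm38.p6, 5′ to 3′ on the gene's strand, and capitals mark GATA sites (AGATAA on either strand, with T also allowed for the first letter and G for the last), the motif bound by factors such as GATA2. Cpa3 lies at chr3:20242132-20242431, Cma1 at chr14:55944626-55944925 and Mcpt4 at chr14:56062261-56062560, all on the minus strand.
Cpa3: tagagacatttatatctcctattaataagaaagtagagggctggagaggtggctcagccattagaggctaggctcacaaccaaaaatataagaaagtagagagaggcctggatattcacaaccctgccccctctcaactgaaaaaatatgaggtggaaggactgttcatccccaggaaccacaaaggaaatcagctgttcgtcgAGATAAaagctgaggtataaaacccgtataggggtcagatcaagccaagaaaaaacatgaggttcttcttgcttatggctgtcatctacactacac
Cma1: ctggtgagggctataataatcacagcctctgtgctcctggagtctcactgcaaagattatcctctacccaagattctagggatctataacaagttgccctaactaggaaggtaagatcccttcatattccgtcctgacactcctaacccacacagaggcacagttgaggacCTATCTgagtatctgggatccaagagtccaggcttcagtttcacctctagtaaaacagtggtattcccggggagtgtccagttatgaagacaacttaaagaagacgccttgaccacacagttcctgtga
Mcpt4: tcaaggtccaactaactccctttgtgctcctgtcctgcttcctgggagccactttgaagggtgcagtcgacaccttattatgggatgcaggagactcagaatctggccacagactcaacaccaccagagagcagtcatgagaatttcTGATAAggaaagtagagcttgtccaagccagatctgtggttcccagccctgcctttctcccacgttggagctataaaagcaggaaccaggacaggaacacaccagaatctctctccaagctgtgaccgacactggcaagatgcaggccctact
Each window holds 1 GATA site. Of the mast cell list, 6 members had an entry and 5 of these held such a site (83.3%), against 8166 of 27025 first-listed promoters of all genes (30.2%). A match is only a description of the letters.

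Klf9 and Chic2 rose. Klf9 (chr19:23141226-23166911) encodes a Krüppel-like transcription factor known to be induced by glucocorticoids and by thyroid hormone. It had 8.45 and 9.02 FPKM at P7, against 3.44 and 4.12 FPKM at P2, a relative log2 difference of 1.3 ± 0.16 (SE, n = 2 each, limma adjusted p = 0.0479). Both P7 libraries were above both P2 libraries, and at P14 the level was 25.2 and 25.6 FPKM. The call lay just inside the threshold: it was lost in each of the 6 fits without 1 library, with an adjusted p of up to 0.436. Chic2 (chr5:75001026-75044774), a cysteine-rich protein of cell membranes, had 6.63 and 7.83 FPKM at P7, against 2.32 and 2.25 FPKM at P2 (1.59 ± 0.15, limma adjusted p = 0.0197). Its call was lost without P2 replicate 2 or either P7 library (adjusted p up to 0.219 over the alternatives). A stretch of 163 bases matches Lrrc28 at 95.1%.

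The other genes of the glucocorticoid and thyroid hormone list were mixed. Of 18 members, 1 was called higher and none lower; 8 were separated upward and 6 downward, and their median relative log2 difference was 0.07, beside -0.01 over all members. Sgk1, a glucocorticoid-induced kinase, had 13.4 and 14.2 FPKM at P7, against 7.43 and 9.92 FPKM at P2. The metallothioneins, small metal-binding proteins that glucocorticoids and zinc induce, were at the lower end: Mt1 had 7.02 and 4.93 FPKM at P7, against 19.3 and 16.6 FPKM at P2 (limma adjusted p = 0.0969). The list's median was -0.20 in the values as deposited and 0.34 with P2 replicate 2 left out.

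Nctc1, a long noncoding transcript, was among the members called higher. It lies at chr7:142544609-142558596, next to H19 (chr7:142575529-142578143) and Igf2 (chr7:142650766-142666816), in the imprinted region that also holds muscle enhancers. Nctc1 had 10.2 and 12.3 FPKM at P7, against 0.306 and 0.967 FPKM at P2, a relative log2 difference of 3.20 ± 0.23 (limma adjusted p = 0.00328). It was a member through its P7 libraries alone, as both P2 libraries were below 1 FPKM. It stood at 61.1 and 61.6 FPKM at P14, and its call was lost without P7 replicate 2 (adjusted p = 0.0578). Its imprinted neighbours were not called: H19 had 1282 and 1338 FPKM at P7, against 1331 and 1638 FPKM at P2, and Igf2, the fetal insulin-like growth factor, had 322 and 346 FPKM at P7, against 445 and 585 FPKM at P2. Nctc1 and the antisense transcript Gm26740 are named because they were called, after their values were seen. Gm26740 (chr10:22187013-22302835) had 7.34 and 7.89 FPKM at P7, against 1.62 and 2.23 FPKM at P2 (1.84 ± 0.18, limma adjusted p = 0.0211), and its call was lost without P2 replicate 1 or either P7 library.

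The remaining longer features that were called belong to genes with near-identical copies, and in each pair the copies were also summed. Rpl29, a protein of the large ribosomal subunit (chr9:106429454-106431568), had 46.0 and 53.2 FPKM at P7, against 7.85 and 8.90 FPKM at P2 (relative log2 difference 2.70 ± 0.17, limma adjusted p = 0.00211). Its processed pseudogene Gm13841 (chr5:115801559-115802194) moved the other way, with 2.59 and 3.47 FPKM at P7 and 75.4 and 80.8 FPKM at P2. The Rpl29 call was lost without P7 replicate 2 (adjusted p = 0.0555), and Gm13841 was called in every fit that tested it. The transcripts match at 99.4% of 483 aligned bases. Summed, the pair had 48.6 and 56.6 FPKM at P7, against 83.2 and 89.7 FPKM at P2, so the sum was lower at P7 while Rpl29 alone was called higher. How the authors' counting split reads between such copies is not given in the sources used here, so both values are uncertain. Gm6969 matches Cox7a2l at 98.0% of 342 bases and was called higher, with 23.9 and 21.3 FPKM at P7, against 0.618 and 2.56 FPKM at P2. Together with Cox7a2l it had 63.9 and 65.7 FPKM at P7 and 54.2 and 68.9 FPKM at P2, and the sums overlapped as deposited. Once the median shift was taken out, both P7 sums lay above both P2 sums. Tma7-ps matches Tma7 at 98.97% of 195 bases and was called lower, with 1.98 and 2.01 FPKM at P7, against 10.5 and 14.6 FPKM at P2. Together with Tma7 it had 36.8 and 47.8 FPKM at P7 and 43.2 and 57.9 FPKM at P2. These sums overlapped both as deposited and with the median shift taken out. The calls of Gm6969 and Tma7-ps were lost without either P7 library. No copy at 95% identity over 150 bases was found for Myl4, Klf9, Arhgap36, Cma1, Tpsb2 or Nctc1.

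The other 10 called features were short RNAs of 106 to 148 bases, 4 called higher and 6 lower, and each was listed at 0 in every library of one stage. Each was a member only through the other stage. At P14 all 10 were listed at 0 in both libraries except Snora17, which had 1.24 FPKM in replicate 2. Libraries all at 0 show no spread, which lowers the estimated spread behind these calls. The microRNA precursor mmu-mir-668 (chr12:109734708-109734813), which lies within the host transcript Mirg, was listed at 248 and 114 FPKM at P7 and at 0 in both P2 libraries. Mir1188 (chr12:109611822-109611941), within the host transcript Rian of the same imprinted region, was listed at 0 in both P7 libraries and at 20.5 and 21.9 FPKM at P2. In 6 of the 10 features every positive value was 1 or 2 times, within 0.01, the smallest positive FPKM of short RNAs of the same length in that library: mmu-mir-668 stood at 2.00 and 1.00 times it and Mir1188 at 1.00 times it. The called feature was itself among those short RNAs, so one that holds the smallest value stands at 1.00 times it by construction. The count therefore cannot decide whether these values sit at the floor. An exact 0 can be a failed estimate in this table: Ttn, the giant spring protein of the sarcomere, had 609 and 624 FPKM at P7 and 600 and 620 FPKM at P2 but is listed at 0 in 1 P14 library. No fold is given for the short features. The long host transcripts were present in every library and were not called: Rian had 1414 and 1628 FPKM at P7, against 1344 and 1671 FPKM at P2, and Mirg 107 and 110 FPKM at P7, against 121 and 148 FPKM at P2. Of 12 microRNA host transcripts, 5 were separated upward and 3 downward (median 0.07).

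The developmental isoforms of the contractile proteins as a list lay low at P7. Of the 12 members, 1 was called lower (Myl4), 10 were separated downward and 1 upward, and the median relative log2 difference was -0.74. Myh3, the embryonic myosin heavy chain, had 19.5 and 18.4 FPKM at P7, against 98.96 and 78.7 FPKM at P2 (-1.89 ± 0.29, limma adjusted p = 0.0836). Myh8, the neonatal heavy chain, was still at 427 and 428 FPKM at P7, against 1063 and 1221 FPKM at P2 (-1.14 ± 0.21, limma adjusted p = 0.121). Tnnt2, the cardiac and embryonic troponin T, had 6.98 and 7.02 FPKM at P7, against 32.5 and 21.3 FPKM at P2 (-1.50 ± 0.22, limma adjusted p = 0.077). None of these 3 was called here, though the libraries did not overlap. Under median-of-ratios scaling and under quantile normalization Myh8 was called lower, and Myh3 and Tnnt2 were not. In the values as deposited tested against 0, all 3 were called lower. The median stayed below 0 without either P2 library.

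Adult fast fibre genes lay high at P7, but the P2 libraries disagreed about their level. Of 24 members, 17 were separated upward and 1 downward with a median relative log2 difference of 0.66, and none was called by limma; 11 were higher at an unadjusted p under 0.05. Myh4, the heavy chain of the fastest fibres, had 1125 and 1025 FPKM at P7, against 11.7 and 248 FPKM at P2. The P2 libraries lay far apart, and the relative log2 difference of 4.53 had a standard error of 1.19 (limma adjusted p = 0.212). Pvalb, the calcium buffer of fast fibres, showed the same spread, with 574 and 634 FPKM at P7, against 26.5 and 196 FPKM at P2. Myh1 had 332 and 312 FPKM at P7, against 22.4 and 101 FPKM at P2. Myh2 had 106 and 73.0 FPKM at P7, against 15.5 and 35.6 FPKM at P2. In all 4 genes P2 replicate 1 was the lowest library and both P7 libraries were the highest. The list's median was 0.51 when P2 replicate 1 was left out and 0.84 when P2 replicate 2 was. Slow fibre genes were mixed: of 17 members 4 were separated upward and 8 downward, with a median of -0.16 and no call.

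Genes of excitation-contraction coupling, the machinery that links the membrane signal to calcium release, also lay high at P7. Of 33 members, 24 were separated upward (72.7%) and 0 downward, with a median relative log2 difference of 0.58. With limma 0 were called and 14 were higher at an unadjusted p under 0.05, whereas 3 of the 33 were called higher when libraries were scaled by the median of ratios and 10 under quantile normalization. Trdn, triadin of the junctional reticulum, had 116 and 163 FPKM at P7, against 56.1 and 73.6 FPKM at P2 (1.36 ± 0.26, limma adjusted p = 0.137). Jph1, which holds the triad membranes together, had 31.6 and 32.9 FPKM at P7, against 16.8 and 22.5 FPKM at P2. Leaving out P2 replicate 1 gave a median of 0.38, and leaving out P2 replicate 2 gave 0.69. Of 31 sarcomere scaffold genes, 15 were separated upward and 3 downward (median 0.29). With limma 0 were called, 8 were higher and 1 lower at an unadjusted p under 0.05, and 1 was called higher when libraries were scaled by the median of ratios and 3 under quantile normalization. Xirp2, a repair and Z-disc protein, led them with 56.8 and 70.2 FPKM at P7, against 20.7 and 30.6 FPKM at P2 (1.56 ± 0.25, limma adjusted p = 0.0967), and it was called under both of these scalings.

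**Figure D3:**
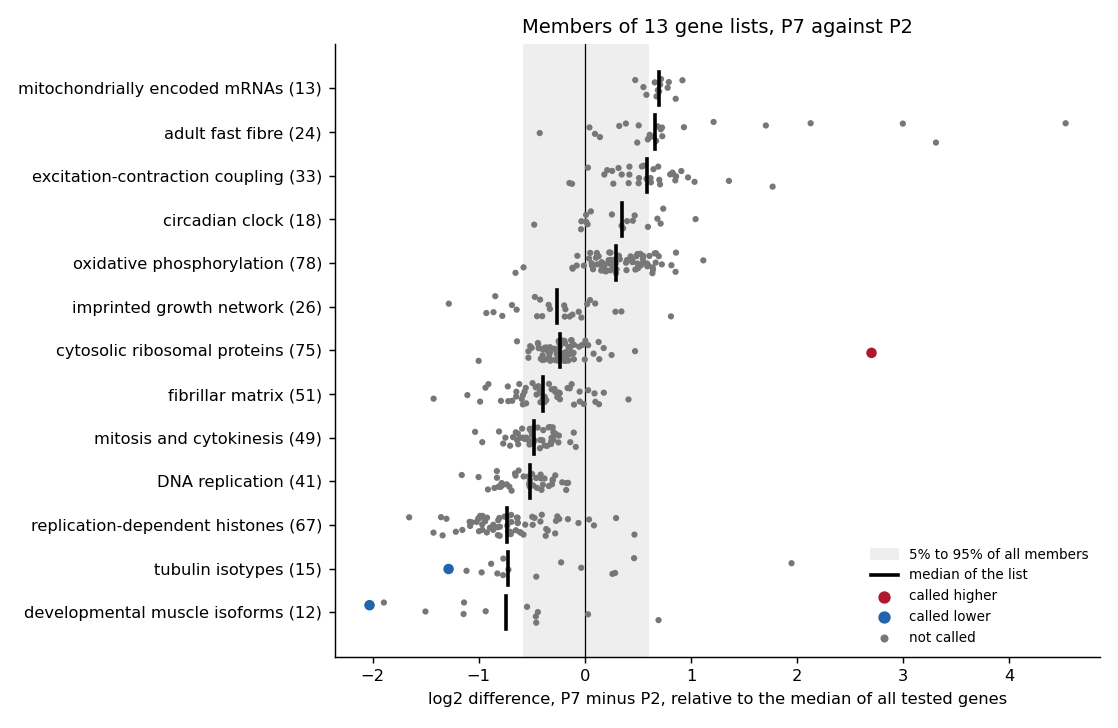
Each point is the relative log2 difference, P7 minus P2, of 1 member of the 13 gene lists named on the left, with the number of members in brackets, a bar at the list's median and a grey band from the 5% to the 95% quantile of all members (-0.57 to 0.60). Rpl29, Tubb2b and Myl4 are the called members shown; the 4 largest values among adult fast fibre genes belong to Myh4, Pvalb, Myh1 and Myh2.

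Genes of cell division lay low at P7 nearly throughout, without a call. Of 49 mitosis and cytokinesis genes, 42 were separated downward (85.7%) and 0 upward, with a median relative log2 difference of -0.48. Of 41 DNA replication genes, 37 were separated downward (90.2%) and 0 upward, with a median of -0.52. Replication-dependent histones, which are made when DNA is copied, followed: 53 of 67 were separated downward (79.1%) and 1 upward, with a median of -0.73. Cdca3, a cell division cycle protein, had 4.54 and 2.97 FPKM at P7, against 9.20 and 11.0 FPKM at P2 (-0.97 ± 0.20, limma adjusted p = 0.148). Mki67, the proliferation marker, had 15.7 and 15.5 FPKM at P7, against 27.0 and 33.7 FPKM at P2. Uhrf1, which carries DNA methylation through replication, had 3.69 and 2.90 FPKM at P7, against 7.85 and 14.0 FPKM at P2. In each the P7 libraries were lower than both P2 libraries. Hist1h2al had 21.9 and 13.9 FPKM at P7, against 69.5 and 68.8 FPKM at P2 (-1.65 ± 0.24, limma adjusted p = 0.078). Histone genes of a cluster resemble one another, so single histone values are uncertain. The CDK inhibitors and D cyclins, which act against and for cell cycle entry, also lay low: 8 of 13 were separated downward and 1 upward (median -0.32). Cdkn1a, the inhibitor p21, had 3.72 and 3.58 FPKM at P7, against 12.7 and 9.13 FPKM at P2, and Ccnd3, cyclin D3, 13.3 and 12.6 FPKM at P7, against 31.5 and 32.5 FPKM at P2. Under the 3 other scalings the medians of these lists stayed below 0. With limma 0 members of these 4 lists were called; at an unadjusted p under 0.05, 20 mitosis, 27 replication, 35 histone and 4 CDK inhibitor and cyclin genes were lower, and quantile normalization called 3 replication genes, 6 histone genes and 1 gene of the last list lower.

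Promoters of the 3 mitosis genes with the lowest relative log2 difference, at least 5 FPKM at one stage and an entry in the RefSeq table are shown because the list moved together. Capitals mark the CCAAT box (CCAAT on either strand) and the cell cycle homology region (TTTGAA on either strand), motifs known from genes expressed late in the cell cycle. Cdca3 lies at chr6:124829926-124830225 on the plus strand, Cdc20 at chr4:118437294-118437593 on the minus strand and Birc5 at chr11:117848987-117849286 on the plus strand (GRCm38.p6).
Cdca3: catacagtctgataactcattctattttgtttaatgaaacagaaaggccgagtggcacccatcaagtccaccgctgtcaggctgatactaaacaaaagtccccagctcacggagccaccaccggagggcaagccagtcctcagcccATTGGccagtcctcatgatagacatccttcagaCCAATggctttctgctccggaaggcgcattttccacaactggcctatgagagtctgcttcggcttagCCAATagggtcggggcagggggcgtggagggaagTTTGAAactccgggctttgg
Cdc20: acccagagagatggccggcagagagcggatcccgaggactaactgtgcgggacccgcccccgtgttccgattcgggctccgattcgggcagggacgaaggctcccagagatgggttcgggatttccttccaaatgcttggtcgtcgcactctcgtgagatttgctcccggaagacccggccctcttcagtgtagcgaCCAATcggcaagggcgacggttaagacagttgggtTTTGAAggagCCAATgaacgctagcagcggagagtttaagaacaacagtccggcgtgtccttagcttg
Birc5: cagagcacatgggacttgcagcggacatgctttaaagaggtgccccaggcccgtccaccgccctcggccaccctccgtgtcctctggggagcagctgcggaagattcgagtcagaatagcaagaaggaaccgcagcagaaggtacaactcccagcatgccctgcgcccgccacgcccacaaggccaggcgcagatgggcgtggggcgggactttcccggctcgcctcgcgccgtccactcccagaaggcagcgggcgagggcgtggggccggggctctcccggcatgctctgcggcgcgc
Cdca3 holds 3 CCAAT boxes and 1 TTTGAA, Cdc20 holds 2 and 1, and these letters are not in the Birc5 window. Of the 41 mitosis members with an entry, 32 held CCAAT (78.0%) and 33 held TTTGAA (80.5%), against 37.9% and 18.1% of 27025 first-listed promoters. Cdc20 had 1.89 and 2.39 FPKM at P7, against 4.58 and 6.85 FPKM at P2, and Birc5 (survivin) 4.53 and 3.31 FPKM at P7, against 7.77 and 10.2 FPKM at P2.

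Tubulin isotypes lay low as well. Of 15 members 1 was called lower (Tubb2b), 10 were separated downward and 2 upward, with a median relative log2 difference of -0.72. Tuba1b had 23.7 and 18.4 FPKM at P7, against 39.5 and 79.5 FPKM at P2, and Tubb6 21.6 and 19.3 FPKM at P7, against 36.6 and 59.2 FPKM at P2. Tuba8, an alpha-tubulin of striated muscle, stood apart from them, with 8.02 and 6.50 FPKM at P7, against 0.698 and 2.90 FPKM at P2 (1.95 ± 0.38, limma adjusted p = 0.141). Isotypes are similar in sequence, which makes single values uncertain.

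Fetal growth genes and connective tissue matrix lay low at P7. In the imprinted growth network, 16 of 26 members were separated downward and 3 upward, with a median relative log2 difference of -0.26 and no call by limma; 9 were lower at an unadjusted p under 0.05, and 5 were called lower under quantile normalization. Peg10, a paternally expressed gene derived from a retroelement, had 8.65 and 8.04 FPKM at P7, against 24.6 and 28.3 FPKM at P2 (-1.28 ± 0.17, limma adjusted p = 0.0551). Dlk1, a Notch-like inhibitor of adipocyte formation, had 92.2 and 84.6 FPKM at P7, against 174 and 218 FPKM at P2, and Mest 36.9 and 42.0 FPKM at P7, against 72.0 and 104 FPKM at P2. Igf2bp2, which binds fetal growth mRNAs, had 4.42 and 4.54 FPKM at P7, against 10.3 and 9.47 FPKM at P2. All 4 were lower in both P7 than in both P2 libraries. In the list of fetal RNA-binding proteins that holds Igf2bp2, 5 of 9 members were separated downward and 2 upward (median -0.35, or -0.21 with P2 replicate 1 left out). Growth signalling genes as a whole were mixed (42 members, 8 separated upward, 12 downward, median -0.10). Igfbp2, an IGF-binding protein, had 1.96 and 1.19 FPKM at P7, against 8.21 and 6.78 FPKM at P2 (-1.46 ± 0.20, limma adjusted p = 0.0725). Mstn (myostatin, which restrains muscle growth) had 22.2 and 24.8 FPKM at P7, against 14.4 and 20.3 FPKM at P2, and Trim63, a ubiquitin ligase of muscle wasting, 12.1 and 12.8 FPKM at P7, against 7.48 and 8.25 FPKM at P2. Igf1 had 30.01 and 36.2 FPKM at P7, against 41.1 and 43.2 FPKM at P2, a relative log2 difference of -0.07 ± 0.18.

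Of 51 fibrillar matrix genes, 26 were separated downward (51%) and 0 upward, with a median relative log2 difference of -0.39 and no call by limma; 13 were lower at an unadjusted p under 0.05, and 3 were called lower under quantile normalization. The P2 libraries differed here by a median of 0.61 log2, and the list's median was -0.56 with P2 replicate 1 left out and -0.22 with P2 replicate 2 left out. Fbn2, the fibrillin of developing tissue, came closest to the threshold, with 5.81 and 6.06 FPKM at P7, against 19.3 and 23.8 FPKM at P2 (-1.42 ± 0.18, limma adjusted p = 0.0542). Tnc (tenascin-C) had 11.3 and 7.63 FPKM at P7, against 28.9 and 22.9 FPKM at P2, and Vcan (versican) 27.6 and 27.1 FPKM at P7, against 63.6 and 62.8 FPKM at P2. Col1a1, the main collagen chain, had 336 and 302 FPKM at P7, against 413 and 644 FPKM at P2, with a relative log2 difference of -0.42 ± 0.28. Basement membrane genes did not follow: of 22 members 6 were separated upward and 2 downward, and their median was 0.00 (-0.27 as deposited, -0.10 with P2 replicate 1 left out and 0.28 with P2 replicate 2 left out). The basement membrane median was -0.01 with P7 replicate 1 left out.

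Cytosolic ribosomal protein genes lay slightly low. Of 75 members 34 were separated downward and 3 upward, with a median relative log2 difference of -0.23, and the 1 called member was Rpl29, the gene with the near-identical pseudogene Gm13841. Rpl3 had 51.1 and 44.6 FPKM at P7, against 110 and 123 FPKM at P2 (-1.0 ± 0.20, limma adjusted p = 0.141). Rpl3l, its paralogue in striated muscle, had 29.4 and 27.7 FPKM at P7, against 2.81 and 22.5 FPKM at P2 (1.91 ± 0.75), and P2 replicate 1 stood far below the other 3 libraries. Eef1a1, the general elongation factor, had 451 and 505 FPKM at P7, against 867 and 837 FPKM at P2, while its muscle and neuron form Eef1a2 had 78.4 and 65.9 FPKM at P7, against 16.9 and 57.0 FPKM at P2. None of these 4 genes was called. Of the 31 ribosome biogenesis and translation factor genes, 15 were separated downward and 2 upward (median -0.12).

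**Figure D4:**
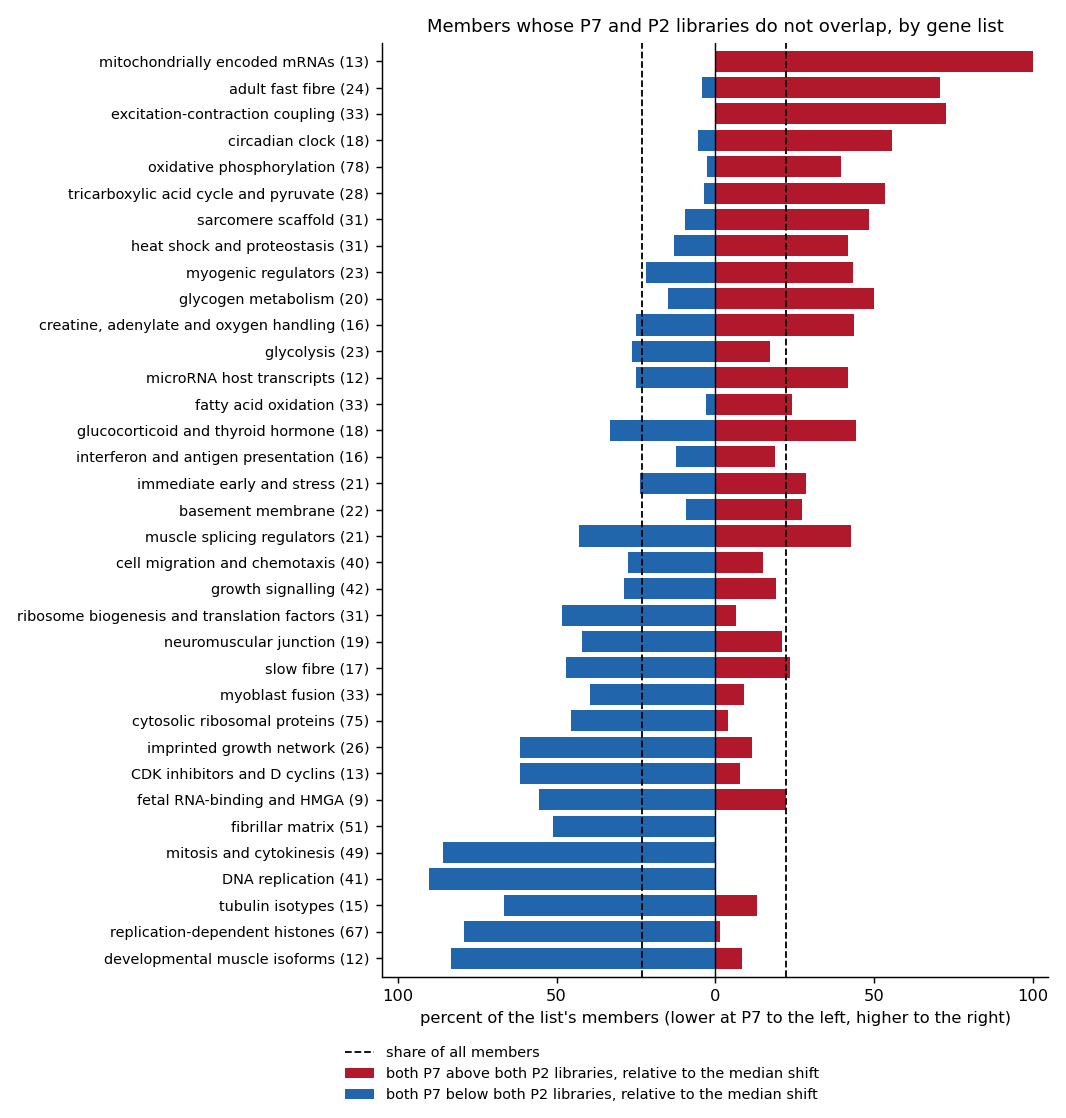
Bars give the percent of each list's members whose P7 libraries both lay above (red, right) or both below (blue, left) the P2 libraries once the median shift was taken out, with the number of members in brackets and lists ordered by median. Dashed lines mark the shares of all members, 22.3% upward and 23% downward; the mitochondrially encoded mRNAs reach 100% upward and DNA replication 90.2% downward.

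Several lists of energy metabolism lay high at P7. All 13 mitochondrially encoded mRNAs were separated upward, with a median relative log2 difference of 0.70 (0.34 after quantile normalization), and none was called by limma; 9 were higher at an unadjusted p under 0.05. mt-Nd2 had 685 and 989 FPKM at P7, against 571 and 482 FPKM at P2 (0.92 ± 0.28, limma adjusted p = 0.243). The P7 libraries differed by a median of 0.45 log2 on this list, with replicate 2 the higher. The list summed to 16481 and 22929 FPKM at P7, against 14495 and 15260 FPKM at P2. The size of the rise therefore depends on P7 replicate 2. These 13 genes share transcripts, so they are not independent. Of 78 nuclear genes of oxidative phosphorylation, 31 were separated upward (39.7%) and 2 downward, with a median of 0.29. Leaving out P2 replicate 1 lowered that median to 0.08, and leaving out P2 replicate 2 raised it to 0.56. Cox7a1, the muscle form of a cytochrome oxidase subunit, had 129 and 155 FPKM at P7, against 49.9 and 123 FPKM at P2. In the tricarboxylic acid cycle and pyruvate list, 15 of 28 were separated upward and 1 downward (median 0.29, or 0.18 with P2 replicate 1 left out). Pdk4, the kinase that spares glucose by blocking pyruvate dehydrogenase, had 23.5 and 30.9 FPKM at P7, against 12.4 and 16.2 FPKM at P2 (1.15 ± 0.22, limma adjusted p = 0.133). Of 33 fatty acid oxidation genes, 8 were separated upward (24.2%) and 1 downward (3.03%), the upward share near that of all members and the downward share below it, with a median of 0.07 (-0.20 as deposited). Ucp3, an uncoupling protein of muscle mitochondria, had 9.24 and 9.74 FPKM at P7, against 3.14 and 6.08 FPKM at P2.

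Glycogen genes were separated upward in 10 of 20 and downward in 3 (median 0.19, and -0.09 in the values as deposited), with Phkg1, the muscle phosphorylase kinase subunit, at 32.1 and 35.2 FPKM at P7, against 11.1 and 26.6 FPKM at P2. Glycolysis genes were not one-sided (23 members, 4 upward, 6 downward, median 0.10, -0.18 as deposited, -0.03 with P2 replicate 1 left out and 0.28 with P2 replicate 2 left out). Mb, the oxygen store myoglobin, had 36.2 and 39.9 FPKM at P7, against 5.01 and 19.96 FPKM at P2 (2.07 ± 0.52, limma adjusted p = 0.193). Its list, creatine, adenylate and oxygen handling, had a median of 0.11 (-0.16 as deposited), with 7 of 16 upward and 4 downward.

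Regulators of the muscle lineage gave no one-sided picture. Of 23 myogenic regulators, 10 were separated upward and 5 downward, with a median relative log2 difference of 0.22 (-0.06 as deposited) and no call. Myod1 had 5.30 and 5.53 FPKM at P7, against 5.85 and 6.32 FPKM at P2, and Myog, the factor of differentiating myoblasts, 17.1 and 17.2 FPKM at P7, against 25.7 and 33.8 FPKM at P2. Pax7, the satellite cell factor, had 1.63 and 1.61 FPKM at P7, against 2.32 and 2.77 FPKM at P2 (-0.16 ± 0.16). Of 33 myoblast fusion genes, 13 were separated downward and 3 upward (median -0.17). Tmem8c (myomaker), the membrane protein that fusion requires, had 3.89 and 3.86 FPKM at P7, against 9.50 and 9.77 FPKM at P2 (-0.85 ± 0.16, limma adjusted p = 0.122). The P2 libraries were close to each other here, and both P7 libraries were lower. Gm7325 (myomerger), its partner in fusion, had 2.53 and 2.02 FPKM at P7, against 4.12 and 5.94 FPKM at P2. Cell migration genes were not one-sided (40 members, 6 upward, 11 downward, median -0.09).

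Among other regulators, 10 of 18 circadian clock genes were separated upward and 1 downward, with a median relative log2 difference of 0.35. Nr1d2, a repressor of the clock, had 15.03 and 16.2 FPKM at P7, against 7.11 and 10.7 FPKM at P2 (1.04 ± 0.21, limma adjusted p = 0.145). The hour of tissue collection is not given in the sources used here, and its part in this was not tested. Muscle splicing regulators were separated equally often in either direction (9 and 9 of 21, median 0.00, or 0.16 with P2 replicate 1 left out and -0.11 with P2 replicate 2 left out). The splicing list's median was 0.04 with P7 replicate 1 left out. Rbfox1 had 11.1 and 12.7 FPKM at P7, against 8.16 and 9.89 FPKM at P2. Neuromuscular junction genes were separated upward in 4 and downward in 8 of 19 (median -0.13, none called). Among them, chosen after their values were seen, Chrng, the fetal gamma subunit of the acetylcholine receptor, had 0.645 and 0.587 FPKM at P7, against 4.01 and 2.67 FPKM at P2 (-1.14 ± 0.21, limma adjusted p = 0.121). Chrne, the epsilon subunit that takes its place in the adult, had 4.76 and 3.28 FPKM at P7, against 0.650 and 2.18 FPKM at P2 (limma adjusted p = 0.205). The stages did not overlap for either subunit, and the subunits lay in opposite directions. Heat shock and proteostasis genes were separated upward in 13 and downward in 4 of 31 (median 0.25, -0.02 as deposited and 0.13 with P2 replicate 1 left out), with Klhl31, a muscle kelch protein, at 50.5 and 59.3 FPKM at P7, against 31.0 and 37.0 FPKM at P2. Immediate early genes (21 members, 6 upward, 5 downward, median 0.02) and interferon genes (16 members, 3 upward, 2 downward, median 0.03) were not one-sided, and none of them was called (medians -0.26 and -0.24 as deposited). The interferon median was -0.11 with P2 replicate 1 left out and 0.14 with P2 replicate 2 left out. The immediate early median was -0.06 with P7 replicate 1 left out.

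Markers of cells other than muscle fibres also differed between libraries, and their part in the results above was not tested. Neutrophil and marrow markers (12 members of 16 listed) had a summed level of 91.5 and 37.1 FPKM at P7 and 316 and 178 FPKM at P2. This and the sums below are over members only. Both P7 libraries were below both P2 libraries, and 9 of 12 members were separated downward and 0 upward (median -0.92, or -0.54 with P2 replicate 1 left out and -1.49 with P2 replicate 2 left out). S100a8, an abundant neutrophil protein, had 34.1 and 13.6 FPKM at P7, against 114 and 74.5 FPKM at P2. The same libraries differed in markers of the skeleton. Bone and osteoclast markers (16 members of 20 listed) summed to 140 and 57.6 FPKM at P7 and 330 and 164 FPKM at P2. Their median was -0.53, or -0.02 with P2 replicate 1 left out and -1.09 with P2 replicate 2 left out. Bglap, the bone protein osteocalcin, had 18.5 and 1.18 FPKM at P7, against 32.5 and 30.1 FPKM at P2, and the P7 libraries lay far apart. Cartilage markers (12 members of 16 listed) summed to 89.0 and 92.7 FPKM at P7 and 86.5 and 52.7 FPKM at P2. Their median relative log2 difference was 1.12 over 12 members; it was 1.48 when P2 replicate 1 was left out and 0.08 when P2 replicate 2 was. Col2a1, the cartilage collagen, had 25.9 and 28.6 FPKM at P7, against 19.98 and 4.23 FPKM at P2. Schwann cell and nerve markers (14 members of 18 listed) summed to 138 and 100.02 FPKM at P7 and 97.4 and 322 FPKM at P2, with P2 replicate 2 far above the other libraries. Their median was -0.14, or -0.52 with P2 replicate 1 left out and 0.07 with P2 replicate 2 left out.

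Macrophage markers (16 members of 17 listed) summed to 88.3 and 97.9 FPKM at P7 and 126 and 174 FPKM at P2, with 9 of 16 members separated downward and 0 upward. C1qb, a complement chain made by resident macrophages, had 4.42 and 5.85 FPKM at P7, against 9.27 and 12.9 FPKM at P2. Erythroid markers had 7 of 13 members separated downward and 1 upward (median -0.75). The alpha-globin Hba-a1 had 216 and 185 FPKM at P7, against 234 and 447 FPKM at P2, and the stages overlapped only once the median shift was taken out. Of the embryonic globins, Hbb-y was at 0 in all 4 libraries. Of 20 endothelial markers 6 were separated upward and 1 downward (median 0.27, or 0.10 with P2 replicate 1 left out and 0.45 with P2 replicate 2 left out). Their sum was 204 and 187 FPKM at P7 and 150 and 261 FPKM at P2, with the P7 libraries between the P2 libraries. Fibroblast, satellite cell, mural, tendon and adipocyte markers had medians of -0.09, -0.16, -0.13, 0.09 and -0.17. The first 3 of these turned above 0 without P2 replicate 2 (0.20, 0.03 and 0.03), fibroblast markers were at -0.32 with P2 replicate 1 left out, and tendon was -0.18 as deposited. Only 2 of 18 lymphocyte markers and 3 of 17 skin markers were members, and the keratins Krt14 and Krt1 were at or below 0.128 FPKM.

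**Figure D5:**
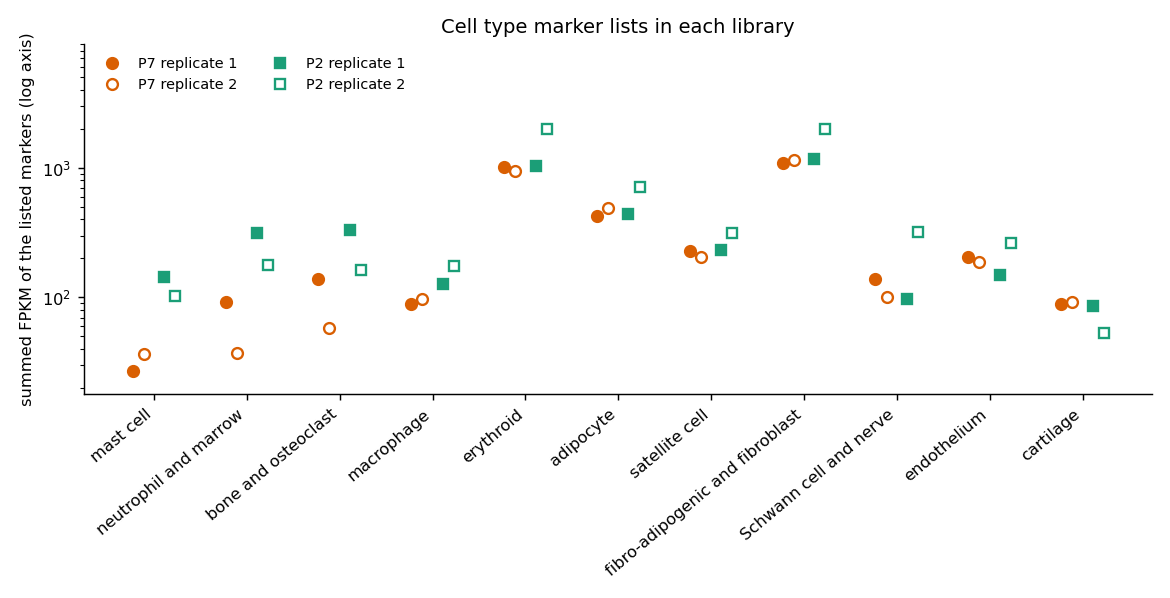
Summed FPKM (log axis) in each library of those listed markers of 11 cell types that were members. P7 libraries are circles left of the P2 squares, with open symbols for replicate 2. Mast cell and neutrophil markers lie lower in both P7 than in both P2 libraries. Bone markers do so only before the median shift is taken out, while Schwann cell and cartilage markers set P2 replicate 2 apart.

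The authors' deposited table gave the same direction for the called protein-coding genes. It comes from the same study, so the shared direction is no independent support. In it Myl4 had a ratio of -4.13, Arhgap36 -4.97, Cma1 -3.07, Tpsb2 -3.56 and Tubb2b -2.67, where a negative ratio means that P7 was lower. The authors' deposited table gave positive ratios of 2.92 for Klf9, 3.96 for Chic2 (p = 0.102 there) and 7.46 for Rpl29. The p-values of the authors' deposited table come from a test of its own and, adjusted over the members, they called 221 members higher and 241 lower at P7. Calls differed between the 2 tests. Myh3, Pvalb, Cpa3 and Fbn2 were among the genes called there (adjusted p of the authors' test 0.00351 each) but not by limma. Chic2 was called by limma but not there.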

How the data were processed

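Hindlimb muscle RNA was measured in 6 libraries (P7, P2 and P14, 2 each). Per the file headers, the authors deposited FPKM for each gene and library. The authors also deposited, per the file headers, a P7 versus P2 table with an FPKM per stage, a signed ratio (fold change, a score below 0 where P7 was lower) and a p-value. The submitters' processing notes name CASAVA 1.2-14, FastQC 0.10.1, TopHat2 2.0.8, Cufflinks 2.2.1, Cuffdiff 2.2.1 and GRCm38. The annotation, the scaling between libraries and the handling of reads with several matches are not given in the sources used here, and FPKM carries no read depth, so no counting interval is given. Short RNAs of 131 bases had a smallest positive FPKM of 10.1 and 10.7 at P7 and 9.52 and 10.2 at P2.

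Values were taken as log2(FPKM + 1), so differences of low genes are understated. Genes of at least 1 FPKM in at least 2 of the 6 libraries (13566) were fitted with limma 3.58.1 in R 4.3.3 (1 mean per stage, variance trend), and the P7 minus P2 difference was tested against the median difference of all tested genes; 506 tested genes are not members. The fit was checked on simulated data. Copies were sought with BLAST 2.17.0 in GENCODE transcripts (at least 95% identity over 150 bases). Promoters came from RefSeq (GRCm38.p6). Named genes were, by rule, called protein-coding genes and other called genes with at least 5 FPKM at one stage and no overlap, for each list the 4 largest changes at 5 FPKM or more at one stage, any further called list member and a few fixed genes; other genes were chosen after their values were seen. Members, lists and markers were chosen with earlier results of these data known. The same-numbered libraries of P7 and P2 did not deviate together (correlation -0.02 across genes), so the replicate number was not used as a block. Start positions were converted to count from 1.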

Additional observations from a re-analysis of the deposited data

How the results depend on the processing

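The calls rest on 2 libraries a stage and few hold everywhere. Against 10 higher and 13 lower, protein-coding genes alone gave 16 and 35, robust moderation 24 and 30, median-of-ratios scaling 43 and 27, quantile normalization 136 and 101, and the authors' deposited p-values, adjusted, 221 and 241. Values as deposited gave 160 lower, a pseudocount of 5 gave 28 lower and no filter 8 lower. Leaving out 1 library gave 4 to 28 higher and 4 to 23 lower; the lowest counts, 4 and 4, came without P7 replicate 2, those without P7 replicate 1 were 6 and 11, those without P2 replicate 1 were 17 and 13, and the highest, 28 and 23, came without P2 replicate 2. The cause was not tested. The replicate block gave 8 and 9, and the pairing check a correlation of -0.02. A term for the Xist-expressing libraries gave 10 and 11. Of 4094 recomputed results for the 206 named genes, 3791 kept their direction and side of the threshold, 72 lost the call, 194 gained it, 0 calls reversed and 37 uncalled values changed sign. Gm13841 was called in all 19 fits that tested it, Rpl29 in 19 of 20, Myl4 in 18 of 20, Klf9 and Cma1 in 9 of 20. Among named genes not called in the main test, Trdn, Jph1, Pdk4 and Nr1d2 were called higher under both median-of-ratios scaling and quantile normalization. Peg10 and Fbn2 were called lower under both, and Myh3 and Tnnt2 under neither. Of 50 lists, 20 had a median that changed sign under some alternative, most of them medians near 0. FPKM without counts gives no depth to set against these differences.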

Other observations

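Some genes outside the lists, chosen after their values were seen, stood out by size without being called in the main test. Agtr2, the type 2 angiotensin receptor of fetal tissue, had 8.80 and 11.8 FPKM at P7, against 37.8 and 32.5 FPKM at P2 (relative log2 difference -1.42 ± 0.21, limma adjusted p = 0.079). Capn6, a calpain-family protein of embryonic muscle, had 24.9 and 25.4 FPKM at P7, against 74.6 and 69.3 FPKM at P2, and Nrk, another X-linked gene, 21.0 and 24.7 FPKM at P7, against 69.6 and 59.9 FPKM at P2. Car2, carbonic anhydrase 2, had 6.51 and 4.41 FPKM at P7, against 19.5 and 20.8 FPKM at P2 (-1.46 ± 0.19, limma adjusted p = 0.0577). In the other direction, Esr1, the oestrogen receptor alpha, had 6.71 and 6.09 FPKM at P7, against 2.88 and 3.18 FPKM at P2 (1.15 ± 0.15, limma adjusted p = 0.0551). Txnip, which restrains glucose uptake, had 93.9 and 101 FPKM at P7, against 39.7 and 62.2 FPKM at P2. In all 6 genes the libraries of the stages did not overlap. Esr1 and Car2 were called under median-of-ratios scaling, under quantile normalization and in the values as deposited. Txnip was called under median-of-ratios scaling and quantile normalization. Agtr2 and Capn6 were called under quantile normalization and as deposited, and Nrk only as deposited.

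The stefin A genes, protease inhibitors known from neutrophils, had the pattern of the neutrophil markers: Stfa2 had 6.85 and 3.03 FPKM at P7, against 38.5 and 12.6 FPKM at P2, and BC100530 9.67 and 3.33 FPKM at P7, against 42.2 and 19.2 FPKM at P2.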
